A study of Mus musculus with 5 samples.

Results

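The genes described here make cholesterol and fatty acids or control that synthesis: 35 genes, from the first condensing enzymes of the mevalonate pathway to the exporters that remove cholesterol from cells. They are fixed by a list of names, chosen with earlier results of these data known. No cut-off on a measured value decides which gene belongs. A probe set is the group of short probes on the array that together measure 1 transcript. Of the 35 genes, 33 had at least 1 probe set with that single symbol in the platform annotation, out of 18193 genes on the array, and all 33 were among the 14109 genes bright enough to be tested. Acat2, a cytosolic thiolase, and Nr1h2, a liver X receptor, had none and were not analysed here. The 33 genes were covered by 75 probe sets, and each gene is given by its brightest probe set over the 5 arrays.

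RNA from 4 mouse medulloblastomas, tumours of the cerebellum, and from 1 mouse cerebellum labelled P5, read as postnatal day 5, was hybridised to Affymetrix expression arrays. The labels of the single arrays give no genotype, strain or treatment, and no age for the tumours; the title of the series names Cxcr6 mutant mice and a Smoothened inhibitor, but neither could be assigned to an array. The P5 cerebellum has no replicate, and its age cannot be told apart from its being normal tissue in any comparison with the tumours. Nothing in the labels says whether the tumours came from separate mice, so p-values measure only the spread between these arrays. The title prefix was ken for medulloblastomas 1 and 2; it was hmk for the other tumours and the cerebellum. What the prefixes stand for is not stated.

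As background, cholesterol is built from acetyl-CoA through mevalonate, squalene and lanosterol, and brain makes nearly all of its own because the sterol does not cross the blood-brain barrier. When sterols run low, the escort protein Scap carries the transcription factors encoded by Srebf2 and Srebf1 to the Golgi for cleavage, and they then switch on the enzymes of sterol and fatty acid synthesis; Insig proteins hold them back. When oxysterols are plentiful, liver X receptors switch on the exporters Abca1 and Abcg1 and the gene Srebf1. Cholesterol is also attached to Hedgehog ligands and binds Smoothened, the signal transducer of the pathway that drives many medulloblastomas of granule neuron precursors.

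Values are deposited signals on a linear intensity scale, and the trimmed mean of each array was 500. Differences are of log2(signal + 32), medulloblastomas minus cerebellum, with the standard error (SE) of the fit. The p-values come from limma and are adjusted by Benjamini-Hochberg over all 14109 genes, with 0.05 as the threshold for a call. The spread is that of the 4 tumours, with 3 residual degrees of freedom, drawn by limma towards a trend over all genes with 5.02 prior degrees of freedom. The single cerebellum is assumed to have the same variance. By exact permutation, 5 arrays split 4 to 1 reach no p below 0.2. Over all genes tested the median difference was -0.07, and 44 genes were called higher and 25 lower, 0.489% of them together; scaling the arrays to equal medians gave 78 and 20. Ratios of 3′ to 5′ signal were highest on medulloblastoma 1, at 1.45 for actin and 0.946 for Gapdh, while the other arrays had 1.21 to 1.35 for actin and 0.731 to 0.824 for Gapdh.

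Of the 17 measured members that make cholesterol, 15 had lower signals in every tumour than in the P5 cerebellum. A further list around sterol synthesis had 5 measured genes, Ggps1, Lbr, Acat1, Erg28 and Tmem97, not all on the route to cholesterol. Of these, Erg28 was below the cerebellum in all 4 tumours. The C14 reductase gene Lbr was above in all 4, by only 0.004 on the log2 scale in medulloblastoma 1. Srebf1, the exporter genes Abcg1 and Abca1, and Insig2 had higher signals in every tumour than in the cerebellum. At their brightest probe sets, Acly, Acaca and Elovl6 of fatty acid synthesis had mean log2 differences of 0.20, 0.09 and 0.04 from the cerebellum. In whole tissue, fewer cells of a type and less RNA per cell cannot be told apart. None of the 33 genes passed the threshold over all genes tested (limma; adjusted p between 0.103 and 0.982). At an unadjusted p under 0.05, 11 were lower, where 7.44% of all genes were, and 2 higher, where 7.72% were. With arrays scaled to equal medians, 5 were lower and 3 higher at that level, and the median difference of the members was -0.27. Of the 33 genes, 20 lay below the cerebellum in all 4 tumours, 7 above it in all 4 and 6 on neither side; over all genes tested 30.8% lay below and 25.1% above. On the values as deposited, the median difference of the 33 genes was -0.45, with -0.49, -0.34, -0.45 and -0.58 in medulloblastomas 1 to 4. It was -0.43 with the ken-titled tumours alone and -0.50 with the hmk-titled tumours alone.

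**Figure D1:**
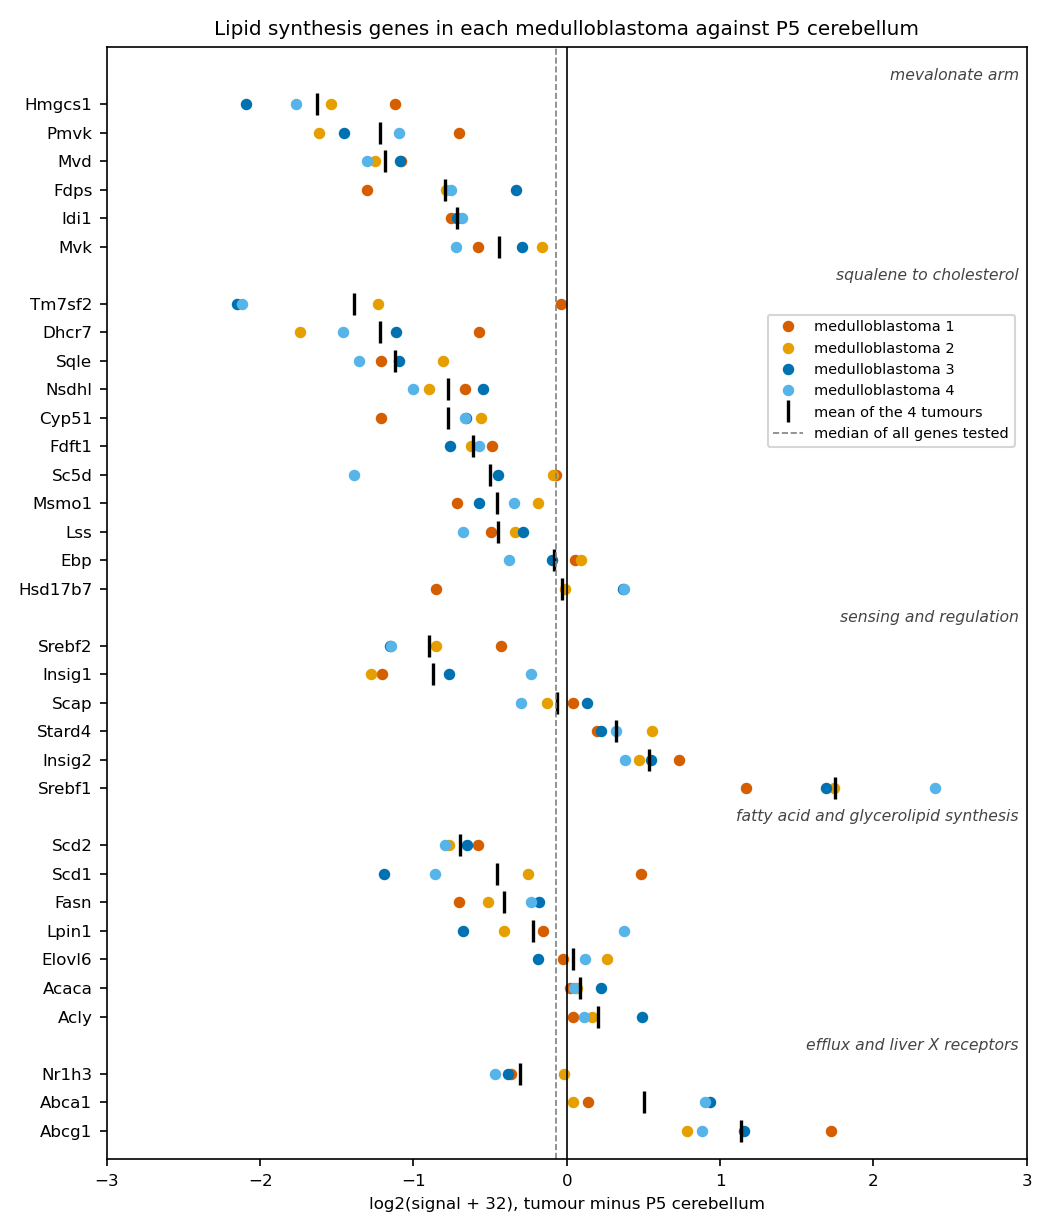
Difference in log2(signal + 32) between each of the 4 medulloblastomas and the P5 cerebellum (horizontal axis) for the 33 measured genes, by role. Points are single tumours, black ticks their mean, and the dashed line is the median of all genes tested; 15 of the 17 genes from Hmgcs1 to Hsd17b7 have all 4 points left of 0, whereas Srebf1 and Abcg1 have all 4 to the right.

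The mevalonate arm, which turns acetyl-CoA into the isoprenoid units of sterols, was below the cerebellum in all 4 tumours at each of its 6 measured genes, with a median difference of -0.99. Hmgcs1 encodes the cytosolic synthase that forms HMG-CoA and lies at chr13:119690351-119708260 (RefSeq genes, GRCm38.p6). Its signals were 4249, 3176, 2144 and 2706 across medulloblastomas 1 to 4 and 9266 for the cerebellum. The tumour mean was 33.1% of the cerebellum signal, every tumour was at least 2-fold below, and the log2 difference was -1.63 ± 0.34 (adjusted p = 0.103). Mvd, the decarboxylase that yields isopentenyl diphosphate, at chr8:122433596-122443422, had signals of 521, 459, 518 and 442 across medulloblastomas 1 to 4 and 1139 for the cerebellum. The tumours lay close together, all at least 2-fold below the cerebellum, with a difference of -1.18 ± 0.28 (adjusted p = 0.125). Hmgcs1 and Mvd were the only measured members at least 2-fold below in all 4 tumours, which was true of 2.63% of all genes tested.

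Pmvk, the phosphomevalonate kinase, gave 638, 323, 367 and 479.8 across medulloblastomas 1 to 4 and 1058 for the cerebellum. Medulloblastoma 1 was the closest to the cerebellum and all 4 tumours were below it, with a difference of -1.22 ± 0.39 (limma, adjusted p = 0.232). Idi1, which interconverts the isoprenoid units, gave 994, 1021, 1019 and 1043 across the tumours and 1696 for the cerebellum, the narrowest spread among the tumours in this arm. Its difference was -0.72 ± 0.23 (adjusted p = 0.236). Fdps, which makes farnesyl diphosphate, gave 848, 1223, 1692 and 1255 across the tumours and 2139 for the cerebellum, with medulloblastoma 1 lowest and medulloblastoma 3 highest. Its difference was -0.79 ± 0.35. Mvk, the mevalonate kinase, differed least, at between 297 and 452 in the tumours and 510.1 for the cerebellum (-0.44 ± 0.35); a second, dimmer probe set of Mvk gave the opposite direction, with 137, 445, 331 and 391 across the tumours and 113 for the cerebellum.

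Of the 11 members that take farnesyl diphosphate through squalene to cholesterol, 9 lay below the cerebellum in all 4 tumours, and the median difference was -0.61. Sqle, squalene epoxidase, the first oxygen-using step of sterol synthesis, had signals of 895, 1198, 974 and 806 across medulloblastomas 1 to 4 and 2117 for the cerebellum. All 4 tumours were below the single cerebellum array, and the difference was -1.12 ± 0.28 (limma, adjusted p = 0.141). Dhcr7, which reduces 7-dehydrocholesterol to cholesterol, gave 954, 408, 648 and 503 across medulloblastomas 1 to 4 and 1438 for the cerebellum. Medulloblastoma 1 was the highest of the tumours and still below the cerebellum; the difference was -1.22 ± 0.43 (adjusted p = 0.256). Tm7sf2, a sterol C14 reductase, varied most of the 11 among the tumours: 613, 250.2, 117 and 121 across medulloblastomas 1 to 4 and 631 for the cerebellum. Medulloblastoma 1 almost reached the cerebellum while medulloblastomas 3 and 4 were far below it, and the difference of -1.39 ± 0.76 had a wide error (adjusted p = 0.418).

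The remaining steps differed less. Nsdhl, a decarboxylating C4 dehydrogenase, gave 922, 777, 1002 and 723 across the tumours and 1478 for the cerebellum (-0.78 ± 0.28). Cyp51, the lanosterol demethylase, gave 370.2, 599, 559.7 and 555 across the tumours and 899 for the cerebellum (-0.77 ± 0.33), and here medulloblastoma 1 was the lowest tumour. Both were below the cerebellum in all 4 tumours. Fdft1, squalene synthase, was between 972 and 1179 in the tumours and 1666 for the cerebellum (-0.61 ± 0.24). Msmo1, the C4 methyl oxidase, was between 653 and 952 in the tumours and 1091 for the cerebellum (-0.46 ± 0.29), and Lss, which closes the sterol rings, was between 324 and 436 in the tumours and 538 for the cerebellum (-0.45 ± 0.32). Sc5d, a desaturase, was near the cerebellum in 2 tumours and lowest in medulloblastoma 4, with 557, 549.5, 420.0 and 204 across the tumours and 586 for the cerebellum (-0.50 ± 0.51). Ebp, a sterol isomerase, and Hsd17b7, a ketoreductase, were the exceptions. Ebp gave 1022, 1052, 919 and 751 across the tumours and 983 for the cerebellum, and Hsd17b7 gave 278, 523, 690.1 and 692 across the tumours and 528 for the cerebellum; tumours lay on both sides of the cerebellum for each, with differences of -0.08 and -0.03, which turned positive with arrays scaled to equal medians (0.11 and 0.15).

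Taking both arms as 17 sterol synthesis genes, 15 were below the cerebellum in all 4 tumours, against 30.8% of all genes tested, and none was above it in all 4. Their median difference was -0.77, and it was -0.70, -0.71, -0.65 and -0.75 in medulloblastomas 1 to 4. At an unadjusted p under 0.05 (limma), 9 were lower, where 7.44% of all genes were, and 0 passed the adjusted threshold. Equal medians put the median of all genes at 0.11; the median of the 17 was then -0.59 and 13 lay below in all 4 tumours, where 20.2% of all genes did. The members share a pathway and the same 5 arrays, so they are not independent measurements.

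**Figure D2:**
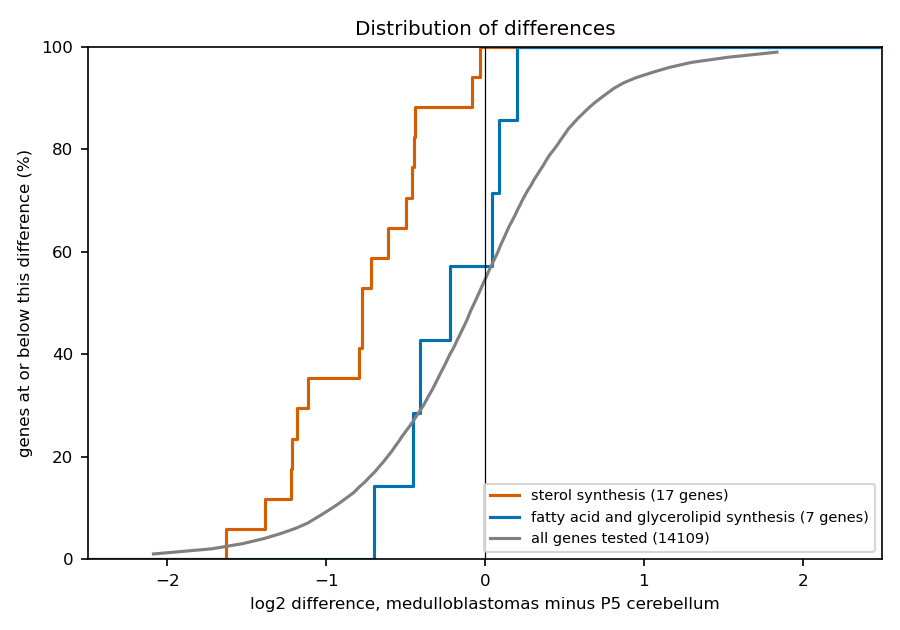
Cumulative share of genes (vertical axis, percent) at or below each log2 difference between medulloblastomas and P5 cerebellum (horizontal axis), for the 17 sterol synthesis genes, the 7 fatty acid and glycerolipid synthesis genes and all 14109 genes tested. The sterol synthesis curve lies to the left of that of all genes over most of its range, with a median of -0.77 against -0.07.

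Further probe sets bear on these values. The 17 sterol synthesis genes had 16 further probe sets past the minimum signal, on 9 genes. By mean difference, 13 had the direction of the one used and 3, of Mvk and Hsd17b7, the opposite. Of the 16, only 8 were below the cerebellum in all 4 tumours. For Hmgcs1, 3 other bright probe sets gave differences of -1.81, -2.03 and -1.82, all larger in size than that of the one used. The dimmest of the 3 bright ones read 1114, 1330.1, 1330.0 and 1343 across the tumours and 4587 for the cerebellum. For Mvd the second probe set differed by -1.07, and for Idi1 by -0.98. For Lss the probe set used gave the smallest difference. The others gave -1.25 and -0.86, the latter with 2 tumours above the cerebellum. With all probe sets of a gene averaged, 13 of the 17 genes were below the cerebellum in all 4 tumours, against 30.9% of all genes.

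**Figure D3:**
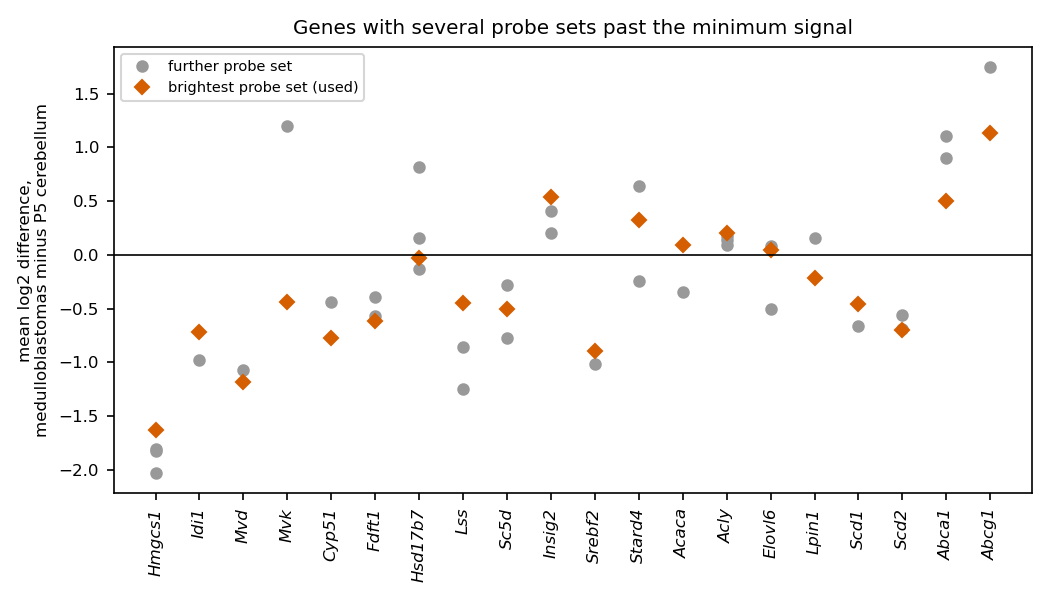
Mean log2 difference between medulloblastomas and P5 cerebellum (vertical axis) for each probe set past the minimum mean signal of 100, for members with several such probe sets. Diamonds are the brightest probe set of a gene, circles the others; all 4 probe sets of Hmgcs1 lie below -1.5, and those of Mvk lie on both sides of 0.

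The promoters of Hmgcs1, Mvd and Srebf1 are shown because these were the 3 members at least 2-fold from the cerebellum in all 4 tumours. Each sequence is the 180 bases before an annotated start site, 5′ to 3′ on the strand of the gene, from RefSeq on GRCm38.p6; capitals mark the CCAAT box (CCAAT on either strand, so also its complement) and the sterol regulatory element (searched as TCACNCCAC on both strands). They lie at chr13:119690171-119690350, plus strand for Hmgcs1, at chr8:122443423-122443602, minus strand for Mvd, and for the 3 annotated starts of Srebf1 at chr11:60222582-60222761, minus strand, at chr11:60220628-60220807, minus strand, and at chr11:60210472-60210651, minus strand.
Hmgcs1: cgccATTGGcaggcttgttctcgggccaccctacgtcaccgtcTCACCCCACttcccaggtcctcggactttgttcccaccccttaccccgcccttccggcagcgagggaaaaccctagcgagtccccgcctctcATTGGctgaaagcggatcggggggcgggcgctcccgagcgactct
Mvd: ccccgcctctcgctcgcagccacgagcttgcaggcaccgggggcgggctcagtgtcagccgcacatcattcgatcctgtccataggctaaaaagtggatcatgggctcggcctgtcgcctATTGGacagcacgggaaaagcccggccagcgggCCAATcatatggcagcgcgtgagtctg
Srebf1, start 1: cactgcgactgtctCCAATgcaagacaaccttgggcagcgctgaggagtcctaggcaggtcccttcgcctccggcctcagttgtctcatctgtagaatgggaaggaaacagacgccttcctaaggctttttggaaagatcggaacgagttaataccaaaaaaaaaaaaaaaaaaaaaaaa
Srebf1, start 2: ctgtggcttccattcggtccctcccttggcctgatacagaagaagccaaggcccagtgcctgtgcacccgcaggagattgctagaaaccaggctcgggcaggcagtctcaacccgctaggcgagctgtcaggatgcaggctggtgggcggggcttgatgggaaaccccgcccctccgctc
Srebf1, start 3: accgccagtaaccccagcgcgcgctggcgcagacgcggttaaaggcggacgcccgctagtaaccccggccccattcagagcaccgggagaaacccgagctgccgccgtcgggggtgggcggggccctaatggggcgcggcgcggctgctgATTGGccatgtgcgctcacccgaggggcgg

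The Hmgcs1 window holds 1 sterol regulatory element, which begins 137 bases before the start site, and 2 CCAAT boxes; the Mvd window holds 2 CCAAT boxes, and the windows of Srebf1 starts 1 and 3 hold 1 each. Of the 33 measured members, 26 had a promoter entry. In the 250 bases before the start, all 14 sterol synthesis genes with an entry had a CCAAT box at 1 or more of their starts, in 14 of their 17 promoters, against 33.8% of all 32851 promoters. The GC box GGGCGG was in 14 of those 17 promoters, against 32.7% of all, the E-box CACGTG in 3 of 17 against 6.02%, and the sterol regulatory element in 1 of 17 against 1.05%. Both strands were searched and matches of different motifs were counted separately, overlapping or not. A match is a description of the letters only, and Ebp and Hsd17b7, whose signals straddled the cerebellum, had CCAAT boxes as well.

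Among the regulators, the genes of the 2 sterol-responsive transcription factors lay on opposite sides of the cerebellum. Srebf1, which favours fatty acid genes and is itself a target of liver X receptors, had signals of 4043, 6044, 5827 and 9561 across medulloblastomas 1 to 4 and 1781 for the cerebellum. The tumour mean was 3.58-fold the cerebellum signal, every tumour was at least 2-fold above, as in 2.01% of all genes tested, and the difference was 1.75 ± 0.40 (adjusted p = 0.115). The array had 1 probe set for it, which does not tell its start sites or isoforms apart. Srebf2, which favours the cholesterol genes, had signals of 1441, 1066, 861 and 866 across medulloblastomas 1 to 4 and 1954 for the cerebellum. All 4 tumours were below, with a difference of -0.90 ± 0.33 (adjusted p = 0.27), and a second probe set gave -1.01.

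Insig1, a classic target of these factors and a brake on them, gave 551, 524, 757 and 1110.4 across medulloblastomas 1 to 4 and 1313 for the cerebellum. Its tumours spread widely, with medulloblastoma 4 closest to the cerebellum, and the difference was -0.87 ± 0.41. Insig2, its relative, which is not driven by them in the same way, was between 745 and 958 in the tumours and 565 for the cerebellum (0.53 ± 0.27), and its 2 further probe sets also differed upwards (0.20 and 0.41). Stard4, a cytosolic sterol carrier, was between 1239.7 and 1598 in the tumours and 1078 for the cerebellum (0.32 ± 0.25), but 1 of its 2 further probe sets gave -0.24. Scap, the sterol sensor that escorts the factors, was between 1093 and 1485 in the tumours and 1349 for the cerebellum, a difference of -0.06 ± 0.26, which was 0.13 with arrays scaled to equal medians.

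**Figure D4:**
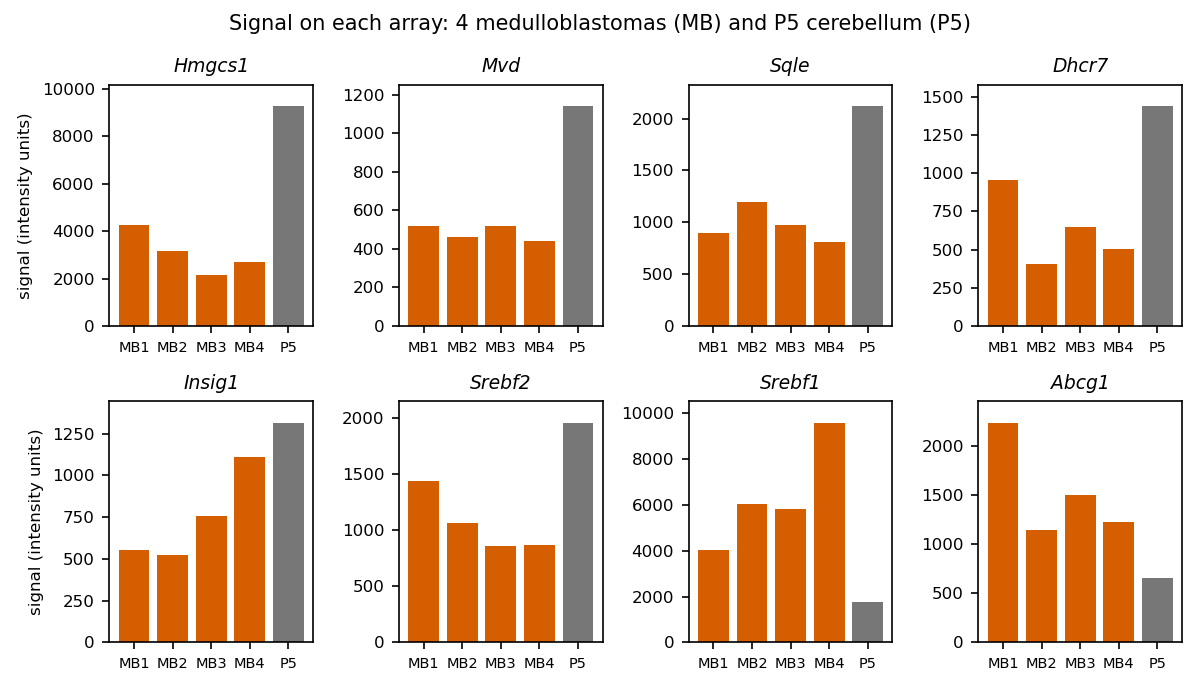
Signal (vertical axis, linear intensity units) on each array for 8 members: the 4 medulloblastomas (MB1 to MB4, orange) and the P5 cerebellum (P5, grey). Bars are single arrays; in the 6 panels from Hmgcs1 to Srebf2 the cerebellum is the highest bar, and in Srebf1 and Abcg1 it is the lowest.

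The 7 genes of fatty acid and glycerolipid synthesis had a median difference of -0.22. In all 4 tumours 2 lay below and 2 above the cerebellum, near the shares of all genes tested, 30.8% below and 25.1% above. Scd2, the stearoyl-CoA desaturase of brain, gave 11678, 10227, 11113 and 10028 across medulloblastomas 1 to 4 and 17429.8 for the cerebellum. The tumours were tightly grouped below the cerebellum, with a difference of -0.70 ± 0.19 (adjusted p = 0.17), and 2 further probe sets gave -0.56 and -0.69. Fasn, fatty acid synthase, gave 2608, 2974, 3761 and 3623 across the tumours and 4265 for the cerebellum, also below in all 4 tumours (-0.41 ± 0.26). Scd1, a related desaturase and neighbour of Scd2 on chromosome 19, gave 1930.2, 1146, 581 and 741 across the tumours and 1370.0 for the cerebellum; medulloblastoma 1 lay above the cerebellum and the other 3 below (-0.45 ± 0.56). A dimmer probe set of Scd1 had all 4 tumours below (-0.66).

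The other enzymes of the group differed little. Acly, which makes cytosolic acetyl-CoA from citrate, was between 4093 and 5601 in the tumours and 3975 for the cerebellum (0.20 ± 0.24). Acaca, the carboxylase that makes malonyl-CoA, was between 1226 and 1417 in the tumours and 1209 for the cerebellum (0.09 ± 0.24), and its second probe set gave -0.35. Elovl6, an elongase, was between 1223 and 1678 in the tumours and 1395 for the cerebellum (0.04 ± 0.26). Further probe sets of Elovl6 gave 0.09 and -0.51, the latter with all 4 tumours below the cerebellum. Lpin1, a phosphatidate phosphatase, was between 348 and 753 in the tumours and 575 for the cerebellum (-0.22 ± 0.41), with 0.16 at its second probe set. With all probe sets averaged, Acly, Acaca and Elovl6 turned slightly negative, at -0.11, -0.13 and -0.13.

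The cholesterol exporters were above the cerebellum in all 4 tumours. Abcg1, which passes sterol to lipoprotein particles, had signals of 2233, 1149, 1496 and 1229.7 across medulloblastomas 1 to 4 and 653 for the cerebellum. Medulloblastoma 1 was the highest, the tumour mean was 2.34-fold the cerebellum signal, and the difference was 1.14 ± 0.37 (adjusted p = 0.235); a dimmer probe set gave 1.74. Abca1, which loads sterol onto apolipoproteins, gave 2555, 2377, 4454 and 4351 across medulloblastomas 1 to 4 and 2314 for the cerebellum. Medulloblastomas 1 and 2 were close to the cerebellum, and 3 and 4 stood well above it; the difference was 0.50 ± 0.39, with 0.90 and 1.1 at its other probe sets. Nr1h3, the measured liver X receptor, was dim, at 235, 307, 231 and 216 across the tumours and 311 for the cerebellum (-0.31 ± 0.38).

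Which array was left out decided whether members were called. Medulloblastoma 1 had the highest 3′ to 5′ ratios and, of the tumours, the highest summed mature granule neuron signal. Their part in the calls was not tested. Without medulloblastoma 1, 7 members passed the threshold, 1 higher and 6 lower, where 3.18% and 2.71% of all genes did. Srebf1 was higher by 1.95 ± 0.28 (adjusted p = 0.00813; 0.000689 to 0.279 over all alternatives). The lower ones were Hmgcs1 (-1.80 ± 0.24, adjusted p = 0.00579, and 0.000223 to 0.263 over all alternatives), Dhcr7 (-1.44), Pmvk (-1.39), Mvd (-1.22), Srebf2 (-1.05) and Scd2 (-0.74). Leaving out medulloblastoma 2, 3 or 4 gave 0 calls among the members, with 10, 12 and 11 at an unadjusted p under 0.05 (limma). Of all 14109 genes, 1549, 1721 and 1702 were at that level. With the 3 hmk-titled arrays alone, 12 members passed, 3 higher and 9 lower, where 5.93% and 5.96% of all genes did; the spread then rests on a single pair of tumours. Beside the 7 above, these were Abca1, Abcg1, Scd1, Sqle and Tm7sf2. With the ken-titled tumours against the cerebellum 0 members passed and 11 had an unadjusted p under 0.05 (limma), as did 1602 of all 14109 genes.

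Between the tumours themselves, the ken-titled pair was set against the hmk-titled pair. The prefix cannot be told apart from any other difference between the pairs. Over all genes tested, 6 passed (limma), 0.0425%, with 0.0213% higher and 0.0213% lower, and 0 of the 33 members did, with 7 at an unadjusted p under 0.05, where 12.3% of all genes were. The pairs did not overlap for 12 members, 7 with the ken-titled pair above and 5 with it below, where 23.3% and 21.5% of all genes did the same. Tm7sf2 had 613 and 250.2 in the ken-titled tumours, against 117 and 121 in the hmk-titled tumours, a difference of 1.5 ± 0.46 (adjusted p = 0.286). Scd1 had 1930.2 and 1146 in the ken-titled tumours, against 581 and 741 in the hmk-titled tumours (1.14 ± 0.29, adjusted p = 0.233). Both were higher on medulloblastoma 1 than on medulloblastoma 2. Abca1 was the other way, with 2555 and 2377 in the ken-titled tumours, against 4454 and 4351 in the hmk-titled tumours (-0.83 ± 0.18, adjusted p = 0.186), and Insig1 had 551 and 524 in the ken-titled tumours, against 757 and 1110.4 in the hmk-titled tumours (-0.74 ± 0.27). The sterol synthesis genes had a median of 0.11 between the pairs. Cell type markers were compared between the pairs as well, to be read beside the same shares of 23.3% above and 21.5% below over all genes. Of the 7 mature granule neuron genes, 6 had the ken-titled pair above without overlap and 0 below, with a median of 1.23 and summed signals of 37894 and 20837 in the ken-titled tumours, against 14871 and 16375 in the hmk-titled tumours. Of the 9 oligodendrocyte genes, 4 had the ken-titled pair above and 1 below, with Mbp at 1.21 ± 0.35, and of the 12 genes of microglia and macrophages 0 had it above and 4 below. None of these marker genes was called between the pairs, and their part in the members' differences was not tested. Without medulloblastoma 2, Abca1, Scd1 and Tm7sf2 were called, among 786 of all 14109 genes, and medulloblastoma 1 is then assumed to vary like the hmk-titled pair.

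**Figure D5:**
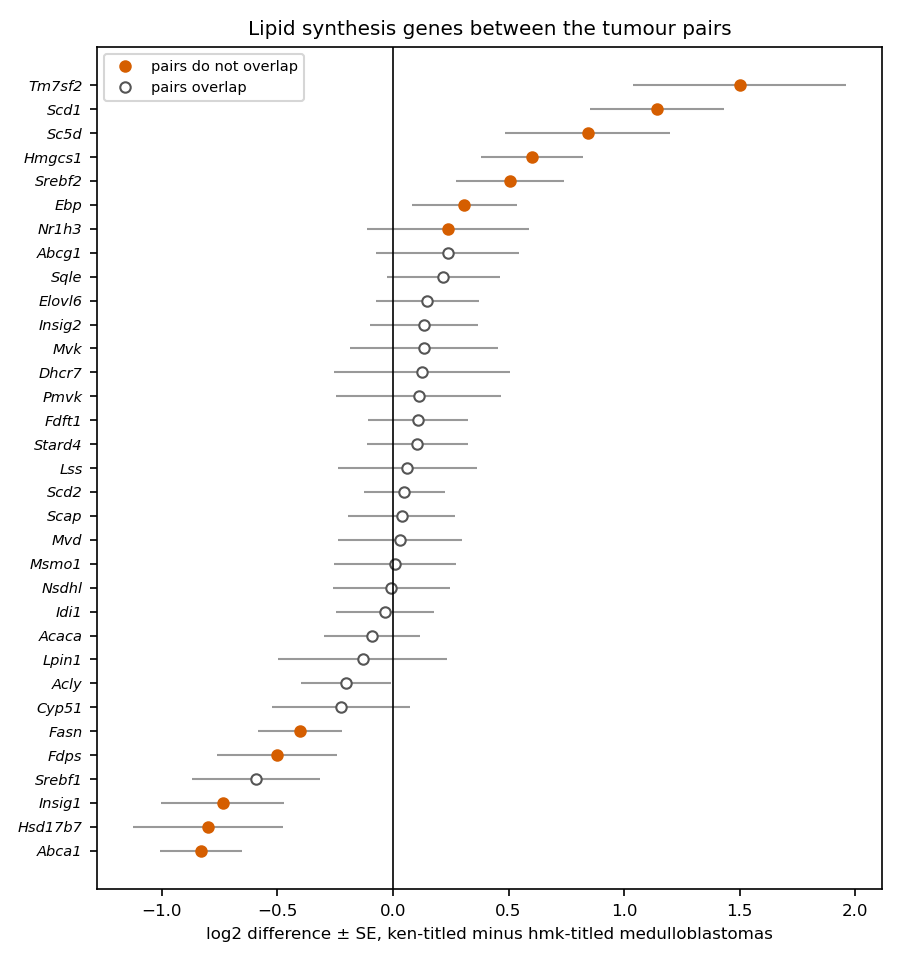
Log2 difference with its SE (horizontal axis) between ken-titled (n = 2) and hmk-titled (n = 2) medulloblastomas for the 33 members. Filled points mark the 12 members whose pairs do not overlap; Tm7sf2 and Scd1 lie furthest to the right and Abca1 furthest to the left.

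Further genes of the pathway came from 5 lists with 54 genes, of which 47 were measured and the other 7 were not analysed here. None of the 47 was called (limma), with 1 higher and 4 lower at an unadjusted p under 0.05. Over all genes tested, 7.72% were higher and 7.44% lower at that level. The 10 measured genes of sterol uptake, transport and storage had a median of -0.07. In all 4 tumours 2 were above and 3 below, where 25.1% and 30.8% of all genes tested were. Apoe, the apolipoprotein that carries sterol between brain cells, had 18311, 21385, 19197 and 19439.9 across medulloblastomas 1 to 4 and 9619 for the cerebellum. The tumours were nearly equal, with a mean 2.04-fold the cerebellum signal and a difference of 1.02 ± 0.19 (adjusted p = 0.0713). Its receptors were on the other side: Lrp8, which also receives reelin, had 556, 287, 158 and 159 across the tumours and 1552 for the cerebellum (-2.46 ± 0.61, adjusted p = 0.134). Vldlr had 1079.6, 856, 890.2 and 928 across the tumours and 1935 for the cerebellum (-1.02 ± 0.25, adjusted p = 0.134).

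Of 20 further fatty acid genes, 9 lay below and 1 above in all 4 tumours, where 30.8% and 25.1% of all genes tested did. Their median was -0.36. The furthest were the elongase Elovl4 (-1.0 ± 0.35), Dgat2, which completes triglycerides (-0.74 ± 0.35), and the desaturase Fads1 (-0.73 ± 0.24). The 5 measured genes of the list around sterol synthesis, not all on the route to cholesterol, had a median of 0.12. Erg28 (-0.53 ± 0.25), Lbr, another C14 reductase (0.42 ± 0.28), and Tmem97 (0.37 ± 0.49) differed most. The 7 genes that cleave or degrade the sterol-sensing complex had a median of 0.05, led by the site-2 protease gene Mbtps2 (0.54 ± 0.33), Erlin2 (-0.38 ± 0.30) and Ufd1 (0.31 ± 0.30). Among the 5 genes of oxysterol formation and sterol breakdown (median -0.29), Cyp46a1, the neuronal 24-hydroxylase that clears brain cholesterol, gave 607, 284, 227 and 317 across the tumours and 765 for the cerebellum (-1.12 ± 0.48). Cyp27a1 (0.33 ± 0.48) and Cyp7b1 (-0.31 ± 0.34) differed less.

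Cell type markers also differed between the groups. Of all genes tested, 25.1% lay above and 30.8% below in all 4 tumours, while 0.312% were called higher and 0.177% lower. Astrocytes are a main site of sterol synthesis in brain. Of 10 genes of astrocytes and Bergmann glia, 5 were below and 3 above the cerebellum in all 4 tumours, with Aldh1l1 (-2.64 ± 0.28) and Aqp4 (-2.09 ± 0.27) called lower. S100b (1.62 ± 0.35), Aldoc (0.83 ± 0.39) and Slc1a2 (0.71 ± 0.38) were the 3 above, and none was called. The summed signal of the 10 was between 35936 and 40894 across the tumours and 72008 for the cerebellum, and most of that gap lay in 2 bright probe sets, Fabp7, with a mean of 5748 over the tumours and 27942 for the cerebellum, and Slc1a3, with 5314 and 14834. Macrophages express Abca1, Abcg1 and Apoe. All 12 genes of microglia and macrophages were above the cerebellum in all 4 tumours, 5 of them called higher (C1qa, Tyrobp, Ctss, Lyz2 and Gpnmb), and their summed signal was between 24214 and 31512 across the tumours and 7663 for the cerebellum. Oligodendrocytes make much sterol when they myelinate. Their 9 measured genes had a median of 0.07, with 3 above and 2 below in all 4 tumours. Mobp was called higher, and Cnp (-0.71 ± 0.27) and Sox10 (-0.49 ± 0.26) were the 2 below. The summed signal of the 9 was between 20338 and 41264 across the tumours and 21059 for the cerebellum. It was highest on medulloblastoma 1, where Mbp alone read 28288, against 9816 for the cerebellum. All 8 genes of endothelial cells and pericytes were below in all 4 tumours, with summed signals between 3236 and 4567 across the tumours and 9515 for the cerebellum. The 7 measured genes of proliferating cells were all above in all 4 tumours, with summed signals between 35671 and 47863 across the tumours and 24580.2 for the cerebellum. No marker was listed at 0 on any array. The part of these cell types in the lipid gene differences was not tested.

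The granule neuron lists, which check the label of the tissue, were measured throughout. Of 8 precursor genes, 6 were above the cerebellum in all 4 tumours, with Atoh1 called higher (2.81 ± 0.40). Zic1 was below in all 4 (-0.40 ± 0.21), and Zic2 lay on neither side (-0.24 ± 0.37). Of all genes tested, 25.1% were above and 30.8% below in all 4. The summed signal of the 8 was between 66106 and 72185 across the tumours and 44567 for the cerebellum. The 7 mature granule neuron genes had summed signals between 14871 and 37894 across the tumours and 24112 for the cerebellum, highest on medulloblastoma 1, and their medians were 1.12, -0.23, -0.78 and -0.94 in medulloblastomas 1 to 4. They lay on both sides of the cerebellum, 3 above and 2 below in all 4 tumours: Gabra6 was called higher (3.99 ± 0.63, limma, adjusted p = 0.0468), Cbln3 (3.11 ± 0.69) and Grin2c (2.19 ± 0.88) were at least 2-fold above in all 4 tumours, and Neurod1 (-0.81 ± 0.23) and Neurod2 (-1.80 ± 0.65) were below.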

How the data were processed

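The table held 1 intensity per probe set for each of 5 arrays, on a linear scale as deposited. Per the submitters' processing notes the intensities were made with MAS5 for 4 arrays; no tool is stated for medulloblastoma 3. The trimmed mean of every array was 500 with 2% of the 45101 values trimmed from either end, so no further scaling was applied. The number of arrays limits the precision. Of the probe sets, 64 were controls, 34945 had 1 gene symbol, 932 had several and were not used, and 9160 were unnamed here; 34741 named ones were found by Entrez ID in RefSeq genes of GRCm38.p6, and 0 symbols changed.

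Each of 18193 genes was represented by its brightest probe set, and the 14109 whose mean signal reached 100 were tested on log2(signal + 32) with limma 3.58.1 in R 4.3.3 (lmFit, eBayes with a variance trend). The values + 32 understate changes of low signals. Alternatives were other scalings, a smaller and a larger constant, other filters, other choices of probe set, eBayes without a trend, arrays of 1 title prefix, and each tumour left out. The procedure was run on simulated data, in which the single array was drawn with the same variance as the others. The simulation therefore cannot check that assumption for the cerebellum. Arrays were numbered in the order of the records. Members and lists were chosen with earlier results of these data known. Members are all accounted for; those called, 2-fold away in all tumours, or among the 3 furthest of their role have each array's value, and the 3 furthest of each further list are named; a few genes that the rule also names are not reported here. Markers called in a list, and other members' values by array, were added after the values were seen.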

Additional observations from a re-analysis of the deposited data

Results flagged for a closer look

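Cyp51, the lanosterol demethylase, stood out on 1 tumour array. Its signals were 370.2, 599, 559.7 and 555 across medulloblastomas 1 to 4 and 899 for the cerebellum, and on the log2 scale the gap between medulloblastoma 1 and the nearest other tumour was 0.839 of the range of the 4 tumours. It was the 1 gene of the 33 measured members with such a gap; chance gives it in about 1 of 20 groups, a higher rate than 1 in 33. A second probe set of Cyp51 read 286, 415, 336 and 636 across the tumours and 553 for the cerebellum, where medulloblastoma 1 was the lowest but close to medulloblastoma 3, and medulloblastoma 4 stood apart instead. The 3′ to 5′ ratios were highest on that array, and their part in the value was not tested.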

How the results depend on the processing

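The 69 genes called over all genes became 0 without a variance trend (2007 at an unadjusted p under 0.05), 16 with all probe sets averaged, 26 without a filter, 1678 with the hmk-titled arrays alone and 37 with the ken-titled tumours. Leaving out a tumour gave between 0 and 831 calls: 831 without medulloblastoma 1, 2 without 2, 16 without 3 and 0 without 4 (1702 at an unadjusted p under 0.05). Members called were 12 with the hmk-titled arrays, between 0 and 7 with a tumour left out, and 0 in the other alternatives (at an unadjusted p under 0.05, between 5 and 12 lower and 2 or 3 higher). The median difference of the members was -0.27 with equal medians, against -0.45 as reported, and between -0.53 and -0.41 with a tumour left out. Between the pairs of tumours the 6 calls became 12 with equal medians, 10 with a larger constant, 1 without a filter, 3 with all probe sets averaged, 0 without a trend (1388 at an unadjusted p under 0.05), and between 0 and 786 with a tumour left out, with 0 to 3 members: 47 genes without medulloblastoma 1, 786 without 2, 2 without 3 and 0 without 4 (1050 at an unadjusted p under 0.05); the lone tumour of a pair is assumed to vary like the other pair. Of 33 members, 25 kept their direction in all alternatives run. With all probe sets averaged the difference was -0.13 for Acaca, -0.11 for Acly, -0.16 for Cyp27a1, -0.13 for Elovl6, 0.20 for Hsd17b7, 0.38 for Mvk and 0.00117 for Scap. With equal medians it was 0.11 for Ebp, 0.15 for Hsd17b7 and 0.13 for Scap, and with quantile normalization 0.041 for Hsd17b7. With the hmk-titled arrays it was -0.032 for Elovl6 and 0.37 for Hsd17b7, and with the ken-titled tumours 0.075 for Ebp and 0.12 for Scd1. With a tumour left out the ranges were -0.14 to 0.018 for Ebp, -0.030 to 0.12 for Elovl6, -0.16 to 0.24 for Hsd17b7 and -0.13 to 0.016 for Scap. The causes were not tested. No paired analysis was possible because the cerebellum is a single array and the numbers of the tumours are only names. Signals near background limit what dim probe sets show.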
